A study of Mus musculus with 6 samples.

Results

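The genes examined are 9 telomere genes of mouse hematopoietic stem and progenitor cells: Tert and Dkc1 of the telomerase enzyme, Terf1, Terf2, Tinf2, Pot1a, Pot1b and Acd of the shelterin complex, and the helicase gene Rtel1. They were chosen by their known roles, with earlier results of these data known. On the Affymetrix Mouse Genome 430 2.0 array they were measured by 23 of 45037 probe sets, each a set of short probes read as 1 value. Each gene was read from its brightest probe set, by the mean of the 6 arrays, which gave 9 of 18193 genes.

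The cells were LKS+ cells, a sorted marrow population without mature-lineage markers that carries high c-Kit and Sca-1 and holds the hematopoietic stem cells and multipotent progenitors. Wild-type (WT) mice gave 3 arrays and Apcmin mice, whose Min allele of Apc ends its reading frame early, gave 3. The Apc protein is a scaffold that helps to mark beta-catenin for degradation. By the series title, the mutant mice serve as a model of MPD/MDS, that is myeloproliferative and myelodysplastic disease, and their stem cells are altered in function. No treatment separates the groups, and the labels give no strain, age or sex, nor do they state whether an array holds 1 mouse or several. The p-values therefore measure the spread between these arrays.

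Telomeres are the repeat-bearing ends of chromosomes, which shorten when cells divide unless telomerase extends them. Tert is the reverse transcriptase of telomerase and dyskerin, the product of Dkc1, binds and stabilizes its RNA component. Shelterin coats the repeats and keeps the ends from being taken for broken DNA: TRF1 (Terf1) and TRF2 (Terf2) bind the double-stranded repeats, TIN2 (Tinf2) links them to TPP1 (Acd), and TPP1 carries POT1, which binds the single-stranded overhang. Mice have a pair of POT1 proteins, from Pot1a and Pot1b. Inherited defects of telomerase, TIN2 or RTEL1 cause bone marrow failure in people. Beta-catenin and Myc are both known to activate transcription of Tert, so an Apc allele could bear on this gene, and the arrays give its RNA level and those of its partners, not telomere length or telomerase activity.

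The sequences just upstream of 3 of the genes are shown because Tert is the gene that beta-catenin and Myc are known to act on, Dkc1 is its partner in the enzyme, and Pot1b is the member whose values separated the genotypes. Each is the 250 bases before a start site of the gene, 5′ to 3′ on the strand of the gene, from RefSeq on build GRCm38.p6, at chr13:73626661-73626910 on the plus strand for Tert, chrX:75095604-75095853 on the plus strand for Dkc1 and chr17:55712637-55712886 on the minus strand for Pot1b. Capitals mark matches to the GC box GGGCGG, the core of the site of Sp1, on either strand.
Tert: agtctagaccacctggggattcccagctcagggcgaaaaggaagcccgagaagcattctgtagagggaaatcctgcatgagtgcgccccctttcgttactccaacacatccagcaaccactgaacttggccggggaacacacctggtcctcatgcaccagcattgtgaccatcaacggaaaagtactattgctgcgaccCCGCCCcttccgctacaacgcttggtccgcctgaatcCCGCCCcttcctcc
Dkc1: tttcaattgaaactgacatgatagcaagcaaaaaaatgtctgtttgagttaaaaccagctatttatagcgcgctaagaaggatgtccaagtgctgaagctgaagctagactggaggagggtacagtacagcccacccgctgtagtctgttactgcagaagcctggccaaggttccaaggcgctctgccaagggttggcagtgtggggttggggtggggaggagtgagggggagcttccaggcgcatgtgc
Pot1b: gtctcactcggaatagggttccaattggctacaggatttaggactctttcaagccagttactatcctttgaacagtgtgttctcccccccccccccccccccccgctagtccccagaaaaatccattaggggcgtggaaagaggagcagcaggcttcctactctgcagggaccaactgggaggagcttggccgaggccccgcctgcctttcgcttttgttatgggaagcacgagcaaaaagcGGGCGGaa
The GC box occurred 2 times in the Tert window, 1 time in that of Pot1b and 0 times in that of Dkc1. The annotated Pot1b gene reaches chr17:55712647, so the last bases of its window, GC box included, lie inside the gene. A sequence was found for 8 of the 9 members. The GC box was in 4 of the 8 windows and in 32.7% of 32851 windows of that length. Of the windows not shown, that of Tinf2 lies wholly inside its annotated gene, and those of Pot1a and Rtel1 do so in part. The E-box CACGTG bound by Myc with Max was in 0 of the 8 windows and in 6.02% of all. CTTTGAT, 1 form of the Tcf/Lef core, was also searched on both strands. It was in 0 of the 8 and in 3.21% of all. Other forms of that core, such as the ctttgaa in the Pot1b window, were not searched or marked. All of these are matches of letters in a short window and say nothing of sites farther away.

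None of the 9 genes passed the test between the genotypes. In limma the smallest adjusted p among them was 0.954, at a threshold of 0.05, and 0 of 9 passed, as did 0 of all 45037 probe sets (0%). At an unadjusted p under 0.05, 0 of the 9 members were found, against 3.11% of all genes. Pot1b came under that level in limma without WT replicate 2 (unadjusted p = 0.0424, adjusted p = 1) and with a filter at a mean of 6 (unadjusted p = 0.0444, adjusted p = 0.994). The number of probe sets under it also moved, from 1714 of 45037 with all arrays to 5864 without WT replicate 3. Values below are deposited intensities on the log2 scale, and differences are Apcmin minus WT. The mean was higher in Apcmin for 8 of the 9 and lower for Tert, with a median difference of 0.12. Over all genes 43.0% had the higher mean in Apcmin and the median was -0.036. Among genes whose mean on that scale reached 6, a range that takes in 8 of the 9 members, the share was 56.3% and the median 0.023. The count of higher members was 7 after a further quantile normalization and 6 where a gene's probe sets were averaged, and it was 6 without WT replicate 2 or without Apcmin replicate 1. In sorted cells read in bulk, fewer cells of a type and less RNA per cell cannot be told apart.

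**Figure D1:**
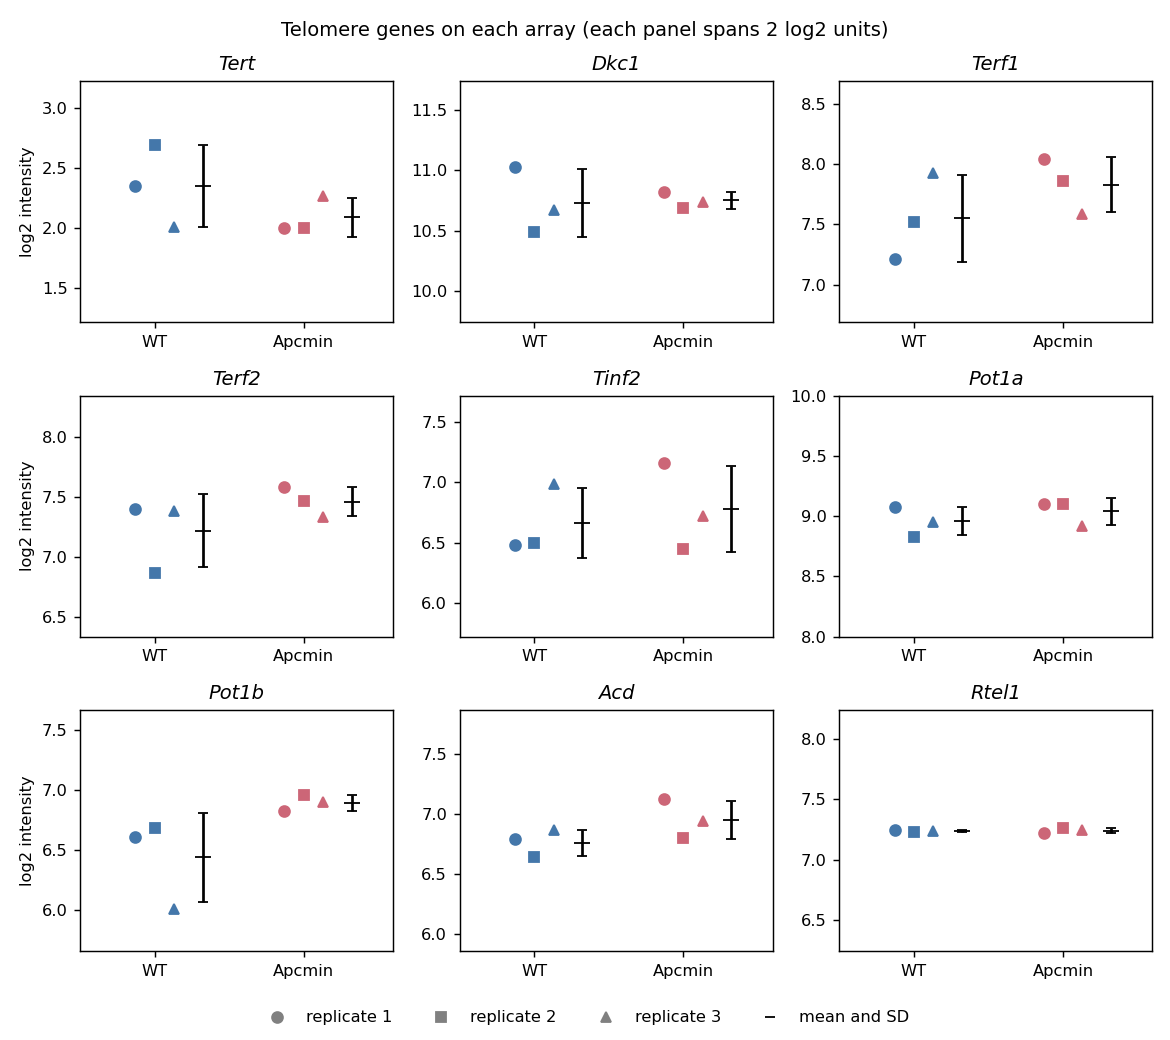
Log2 intensity of the 9 telomere genes on each array, WT in blue and Apcmin in red, with the mean and SD (n = 3) in black; each panel spans the same range, and the levels of different genes are not comparable. Pot1b is the gene whose 3 Apcmin values (6.82 to 6.96) all lie above the 3 WT values (6.01 to 6.68), and the Rtel1 points nearly coincide.

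Tert, the catalytic subunit of telomerase, was near the bottom of the measured range on every array. Its brighter probe set read 2.35, 2.69 and 2.01 in WT replicates 1 to 3 and 2.00, 2.00 and 2.27 in Apcmin, and 25.3% of all probe sets had a lower mean. The groups overlapped, since WT replicate 3 lay below Apcmin replicate 3. The difference was -0.26 with a standard error of 0.21 and a 95% confidence interval from -0.76 to 0.24 (limma, adjusted p = 0.954). The other Tert probe set, with WT at 1.84 ± 0.12 (SD, n = 3) and Apcmin at 1.5 ± 0.49, differed by -0.33 (interval -0.94 to 0.27). Without WT replicate 2 the Tert difference was -0.09, and without WT replicate 3 it was -0.43. The files hold no detection call, so it was not tested whether either probe set stood above background, and the values of dim genes leaned the same way: the median difference was -0.12 over the 9535 genes with a mean under 6.

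Dkc1, which encodes the dyskerin pseudouridine synthase of telomerase and of the H/ACA ribonucleoproteins that modify ribosomal RNA, was bright and differed little by its brightest probe set. That probe set read 11.03, 10.49 and 10.67 in WT and 10.82, 10.69 and 10.74 in Apcmin, so the Apcmin values lay inside the WT range. The difference was 0.019, with an interval from -0.41 to 0.44 that spans 0.754-fold to 1.36-fold, and it was -0.10 without WT replicate 2. The brightest probe set is of the kind Affymetrix marks _s_at, whose probes can match more than 1 transcript. The other Dkc1 probe sets carry no such mark and differed by 0.24 (9.29 ± 0.22 in WT and 9.53 ± 0.18 in Apcmin) and by 0.29 (9.08 ± 0.31 and 9.37 ± 0.22), with an adjusted p of 0.954 for both.

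The proteins that bind the double-stranded repeats, TRF1 and TRF2, had somewhat higher transcript means in Apcmin by every probe set, within the spread of the arrays. Terf1 read 7.21, 7.52 and 7.93 in WT and 8.04, 7.86 and 7.59 in Apcmin. WT replicate 3 lay above 2 of the 3 Apcmin arrays, and WT replicate 1 was the lowest. The difference was 0.28 with a standard error of 0.23 and an interval from -0.26 to 0.82. The other Terf1 probe sets differed by 0.39 and 0.62, the latter from a dim probe set at 4.51 ± 0.92 in WT and 5.12 ± 0.35 in Apcmin. Without WT replicate 1 the difference of the brightest was 0.11 and without WT replicate 3 it was 0.47.

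Terf2 read 7.40, 6.87 and 7.38 in WT and 7.58, 7.47 and 7.33 in Apcmin. WT replicate 2 was low, and the other WT arrays lay within the range of the Apcmin arrays. The difference was 0.24 with a standard error of 0.19 and an interval from -0.21 to 0.70, and it was 0.068 without WT replicate 2. A second Terf2 probe set of nearly the same brightness differed by 0.31, but there WT replicate 1, at 6.6, was the low array. The dimmest, which differed by 0.15, ranged from 4.80 to 7.05 among the Apcmin arrays. Terf2ip, the gene for RAP1, the shelterin subunit that TRF2 recruits, averaged 7.26 ± 0.15 on the WT and 7.28 ± 0.21 on the Apcmin arrays, 0.022 apart, with an interval from -0.38 to 0.43.

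Tinf2 and Acd encode TIN2 and TPP1, the bridge between the double-stranded and single-stranded repeats. Tinf2 read 6.48, 6.50 and 6.99 in WT and 7.16, 6.45 and 6.72 in Apcmin, with the highest and the lowest value both in Apcmin. Its difference was 0.12 (interval -0.45 to 0.69) and was -0.072 without Apcmin replicate 1. Acd, measured by 1 probe set, read 6.79, 6.64 and 6.87 in WT and 7.12, 6.80 and 6.94 in Apcmin. Only Apcmin replicate 2 lay within the WT range. The Acd difference was 0.19 with a standard error of 0.15 and an interval from -0.18 to 0.56, and leaving out single arrays moved it between 0.11 and 0.27.

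The POT1 paralogs bind the single-stranded overhang. Pot1a, whose product is needed to hold back the ATR kinase at chromosome ends, read 9.08, 8.83 and 8.95 in WT and 9.10, 9.10 and 8.92 in Apcmin. These overlap, and the difference was 0.088 with an interval from -0.26 to 0.43. The 3 dimmer Pot1a probe sets had lower means in Apcmin, by -0.18, -0.13 and -0.022.

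Pot1b, whose product limits trimming of the strand opposite the overhang, read 6.61, 6.68 and 6.01 in WT and 6.82, 6.96 and 6.90 in Apcmin. It was the only one of the 9 whose groups did not overlap, 1 of 9 where 7.73% of all genes were separated in either direction and 2.97% with Apcmin above. Of the 8658 genes with a mean of at least 6, the range of Pot1b, 360 had Apcmin above and 301 had it below. The Apcmin arrays lay close together (SD 0.07) and the WT arrays did not (SD 0.37), because WT replicate 3 was low. The difference was 0.46, or 1.37-fold, with a standard error of 0.21 and an interval from -0.037 to 0.95 (limma, adjusted p = 0.954, unadjusted p = 0.0647). Without WT replicate 3 it was 0.25. A single probe set measures this gene, so no second reading stands beside it. Whether Pot1b differed from Pot1a in its response to the genotype was not tested.

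RTEL1 is a helicase that unwinds the telomeric loop and G-quadruplex structures. Rtel1 read 7.25, 7.23 and 7.24 in WT and 7.22, 7.26 and 7.25 in Apcmin. The arrays were almost level, with a pooled SD of 0.016 against a median of 0.18 over genes with a mean of at least 6. The difference was 0.003, and limma's moderated interval ran from -0.30 to 0.30, or 0.813-fold to 1.23-fold. This probe set too is marked _s_at. A second bright one, marked _x_at for probes that can bind unrelated sequence, read 6.59 ± 0.31 in WT and 6.73 ± 0.21 in Apcmin, and the 2 others were dim and differed by -0.28 and 0.12.

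Over all probe sets of the members, 17 of 23 had a higher mean in Apcmin and 6 a lower one, where 44.4% of all probe sets and 56.8% of those with a mean of at least 6 were higher. Of the 7 members with several probe sets, 5 had the same sign throughout: Dkc1, Terf1, Terf2 and Tinf2 upward and Tert downward. Probe sets of 1 gene share their RNA and are not replicates.

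**Figure D2:**
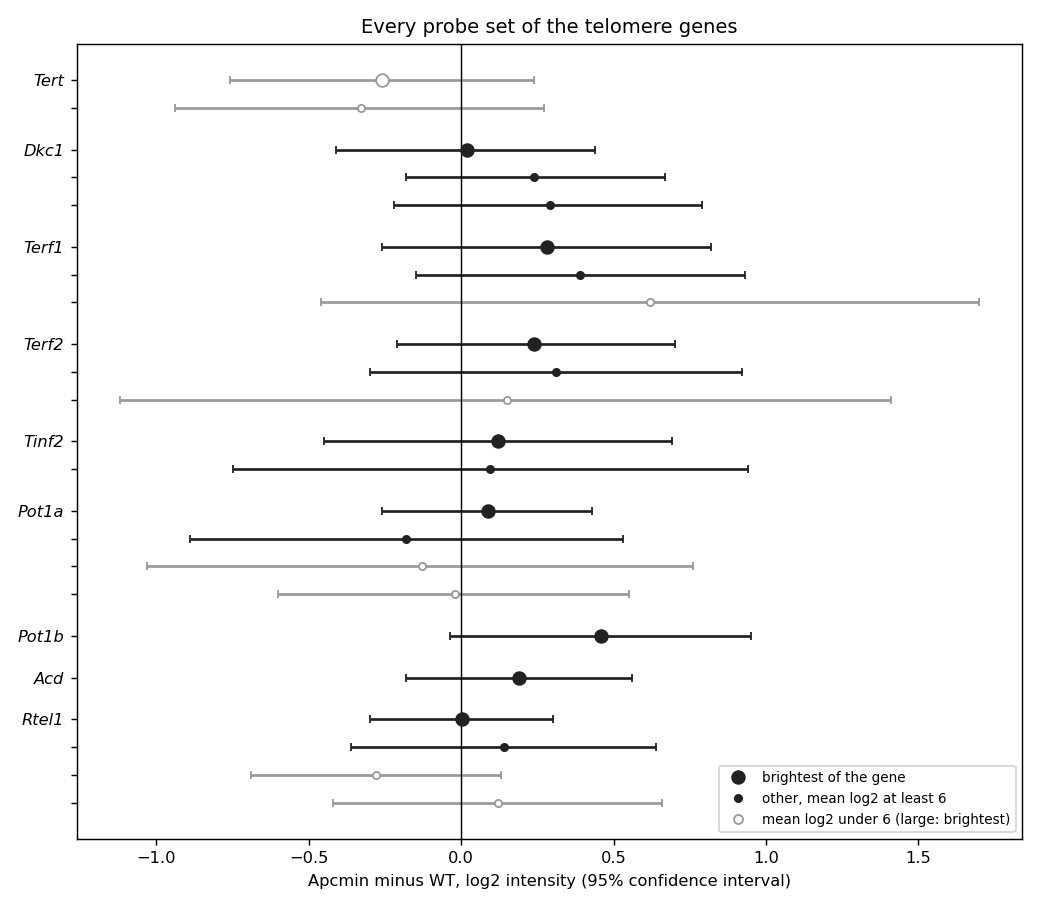
Difference between Apcmin and WT (log2 intensity) for all 23 probe sets of the 9 genes with limma's 95% confidence interval; large points are the brightest probe set of a gene and open points have a mean log2 intensity under 6. Every interval takes in 0, and the interval of Pot1b, from -0.037 to 0.95, does so by the least.

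Single arrays set much of what the members showed. WT replicate 2 had the lowest value for 4 of the 9 members and Apcmin replicate 1 the highest for 4. The median deviation of the members from their means over the arrays was -0.17 on WT replicate 2 and 0.16 on Apcmin replicate 1, and between -0.001 and 0.02 on the other arrays. The median difference of the members dropped to 0.041 when WT replicate 2 was left out and to 0.058 when Apcmin replicate 1 was. It became 0.24 on leaving out either WT replicate 3 or Apcmin replicate 2. The SD was larger in WT than in Apcmin for 6 of the 9.

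**Figure D3:**
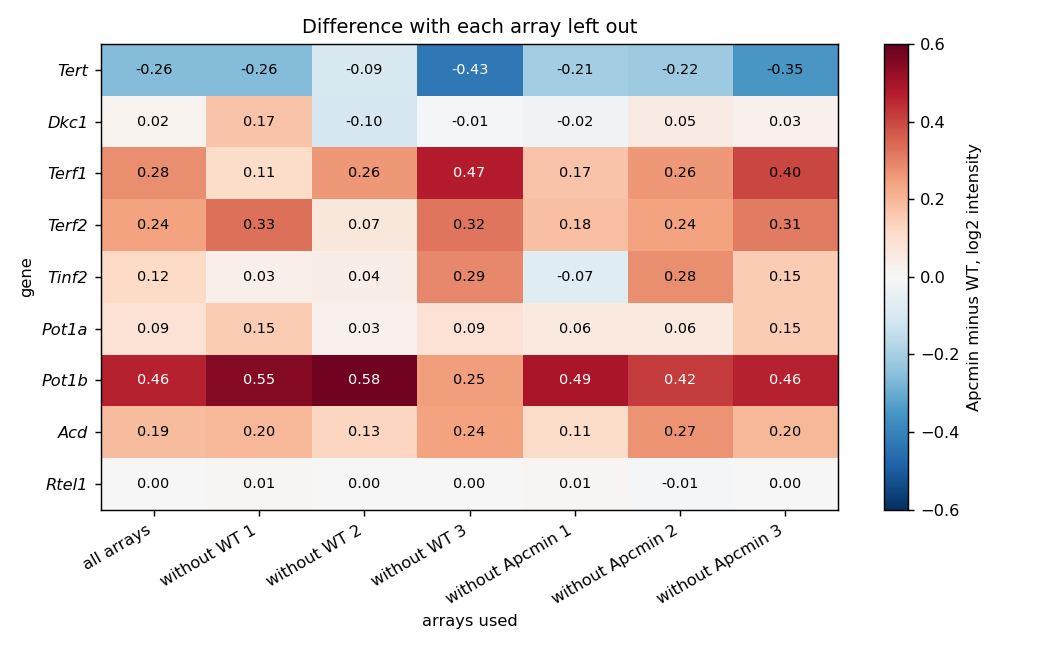
Difference between Apcmin and WT (log2 intensity, in each cell and by colour) for each gene with all arrays and with each array left out. Terf1, Terf2, Pot1a, Pot1b and Acd stay above 0 and Tert below 0 in every column, while Dkc1 and Tinf2 change sign and Rtel1 stays near 0.

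The arrays also differed in the sex of the animals as their RNA shows it, and both sexes occurred in both genotypes. Xist, the RNA of the inactive X chromosome, was between 10.63 and 10.74 on 4 arrays and at 2.48 on WT replicate 3 and 3.14 on Apcmin replicate 2. The Y-linked Eif2s3y was at 9.20 and 9.39 on those same 2 arrays and at 1.58 or less on the others. Leaving out either of the 2 leaves 1 genotype with high-Xist arrays alone. The values given without WT replicate 3 or without Apcmin replicate 2 therefore join sex with genotype. Pot1b differed by 0.21 between the 2 Apcmin and 2 WT arrays with high Xist, and by 0.95 between the 2 arrays with low Xist, which are 1 WT at 6.01 and 1 Apcmin at 6.96. For Tinf2 the same differences were 0.45 and -0.54, for Terf1 0.45 and -0.069, for Acd 0.32 and -0.064, and for Terf2 0.32 and 0.091. The sign was the same in both comparisons for 5 of the 9 members. Dkc1, which is X-linked, read 10.67 and 10.69 on the arrays with low Xist, inside the range of the others. With Y-linked expression as a covariate the Pot1b difference was 0.45 (limma, adjusted p = 0.891).

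The sort and its purity were looked at through marker genes. The 9 measured LKS+ markers, Kit and Cd34 among them, all had a mean of at least 6, and 7 were higher and 2 lower in Apcmin by their means. Of 24 measured markers of mature blood cells, 21 had a lower mean in Apcmin and 3 a higher one, with a median of -0.18. Differences ran from -1.49 for Slc4a1, a dim marker with a mean of 3.72, to 0.25. In limma 0 of the 24 passed. At an unadjusted p under 0.05, 5 of the 24 were found, all lower in Apcmin. That level was met by 3.11% of all genes and by 450 of the 9535 genes with a mean under 6. It was met by 116 of the 8658 genes with a mean of at least 6. Nkg7, the only one of the 5 in that brighter range, differed by -0.34 (interval -0.67 to -0.014). The mean reached 6 for 10 of the 24 markers. Among all genes with a mean under 6, the Apcmin mean was the lower for 6590 of 9535, with a median difference of -0.12. All Apcmin arrays lay below all WT arrays for 4 of the 24, as they did for 4.76% of all genes and for 565 of the 9535 dim ones. Their summed linear intensity ranged from 9831 to 12854 in WT and from 9942 to 10447 in Apcmin. The highest marker means were those of the neutrophil genes S100a9 at 12.00 and S100a8 at 11.36, the cytotoxic lymphocyte gene Nkg7 at 10.87 and the granule gene Camp at 9.59. The B-cell gene Cd79b was at 7.99, but the B-cell genes Cd79a and Ms4a1 were at 3.57 and 1.83. The monocyte receptor gene Csf1r was at 8.33. The monocyte and macrophage genes Cd14, Adgre1, Marco and Itgam were lower, at 3.82, 2.63, 2.97 and 2.7. The T-cell genes Cd3d, Cd3e and Cd3g had means of 2.88, 2.74 and 2.05. No marker was listed at 0, but no deposited intensity was, so this says nothing of whether a marker was detected. Whether mature cells were present, and what part they had in the values of the telomere genes, was not tested.

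The other genes of the telomere pathway were taken from 6 lists set by role, and none passed. Apart from Apc, Ctnnb1, Myc and Mki67, the genes named from them were picked for the smallest p in each direction. Separation of the groups among these follows in part from that choice, and 7.73% of all genes were separated. Apc itself averaged 7.72 ± 0.09 on the WT arrays and 7.8 ± 0.09 on the Apcmin arrays, a weak check of the labels because the Min allele leaves the probed sequence in the transcript. Telomerase assembly factors, which fold, stabilize and deliver the enzyme, had 8 of 11 measured members higher and 3 lower, with a median of 0.01. Ruvbl1, an ATPase of enzyme assembly, read 9.69, 9.64 and 9.73 in WT and 9.83, 9.85 and 9.96 in Apcmin (difference 0.20), without overlap. Naf1, an H/ACA assembly factor, differed by 0.17, the assembly factor Shq1 by -0.25 and Wrap53, which carries telomerase to Cajal bodies, by -0.09.

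The CST complex and the primase it recruits, which fill in the strand opposite the overhang, had 4 of 7 members higher and 3 lower, with a median of 0.004. Ten1, the smallest CST subunit, read 8.52, 8.20 and 7.85 in WT and 7.74, 7.82 and 7.73 in Apcmin. Its Apcmin values all lay below the WT values, and WT replicate 3, the lowest WT array, was close to them. The Ten1 difference was -0.43 with an interval from -0.89 to 0.041 (limma, adjusted p = 0.954). Ctc1, the largest CST subunit, differed by -0.26, Pola1 of DNA polymerase alpha by 0.16 and Prim1 of primase by 0.11.

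Telomere partners and end-processing genes had 14 of 26 members higher and 12 lower, with a median of 0.038. Prkdc, the catalytic subunit of the DNA-dependent protein kinase, read 6.44, 7.23 and 7.34 in WT and 7.53, 7.49 and 7.40 in Apcmin (difference 0.47). Wrn, the Werner syndrome helicase, was at 8.95 ± 0.26 and 9.27 ± 0.14, also without overlap. Fbxo4, a subunit of a ubiquitin ligase for TRF1, read 7.05, 6.13 and 5.84 in WT and 5.71, 5.72 and 5.49 in Apcmin. Its Apcmin values were below all WT values and its difference was -0.70, with an interval from -1.44 to 0.038. Fbxo4 reached a mean of 6 through WT alone (6.34 in WT and 5.64 in Apcmin), the genotype in which it was higher, so it was named in part by that difference. Tti1, which helps the folding of large kinases such as ATM and ATR, differed by -0.32.

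The damage checkpoint, which acts on unprotected ends, had 6 of 11 members higher and 5 lower, with a median of 0.004. Atr, the kinase that POT1 holds back, read 7.53, 7.51 and 7.45 in WT and 7.92, 7.78 and 7.75 in Apcmin. Its difference of 0.32 had an interval from 0.002 to 0.64. The genotypes did not overlap, and the unadjusted p was 0.0489, but Atr did not pass over all probe sets (limma, adjusted p = 0.954). An unadjusted p under 0.05 was found for 1 of the 11 checkpoint genes and for 3.11% of all genes. All Apcmin arrays lay above all WT arrays for 2 of the 11 and for 2.97% of all genes. All 11 had a mean of at least 6. Of the 8658 genes in that range, 116 had an unadjusted p under 0.05 and 360 had all Apcmin arrays above. Chek2, a checkpoint kinase downstream of ATM, averaged 7.38 ± 0.11 on WT and 7.72 ± 0.14 on Apcmin arrays (difference 0.34), again without overlap. Cdkn1a, the p53 target that stops the cell cycle, differed by -0.20 and Rpa3, of the single-strand binding protein RPA, by -0.10. Genes of telomeric chromatin were balanced, with 7 of 14 higher and 7 lower and a median of -0.009. Among them Dnmt3b, a DNA methyltransferase, differed by 0.20, the heterochromatin protein gene Cbx5 by 0.16, Nsmce2, a SUMO ligase of the SMC5/6 complex, by -0.21, and Kmt5c, a histone H4 methyltransferase, by -0.25.

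Transcription factors that act on Tert had 7 of 12 members higher and 5 lower, with a median of 0.055. Ctnnb1, which encodes beta-catenin, averaged 11.63 ± 0.13 on WT and 11.72 ± 0.13 on Apcmin arrays. Myc read 9.88, 10.45 and 10.51 in WT and 10.18, 10.06 and 10.42 in Apcmin. Its difference was -0.061, with an interval from -0.58 to 0.45. Klf4, which works with beta-catenin at Tert in stem cells, read 7.18, 7.09 and 6.35 in WT and 6.44, 5.77 and 6.43 in Apcmin (difference -0.66, interval -1.35 to 0.035). Mxd4, a Max partner of the repressive MXD family, differed by -0.31, Mycn by 0.21 and E2f1 by 0.16. The RNA level of beta-catenin says nothing of the protein, which is what Apc acts on. Proliferation genes, whose products accompany the cell divisions that shorten telomeres, had 13 of 19 higher and a median of 0.053, with Mki67 at 10.46 ± 0.05 and 10.51 ± 0.05.

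**Figure D4:**
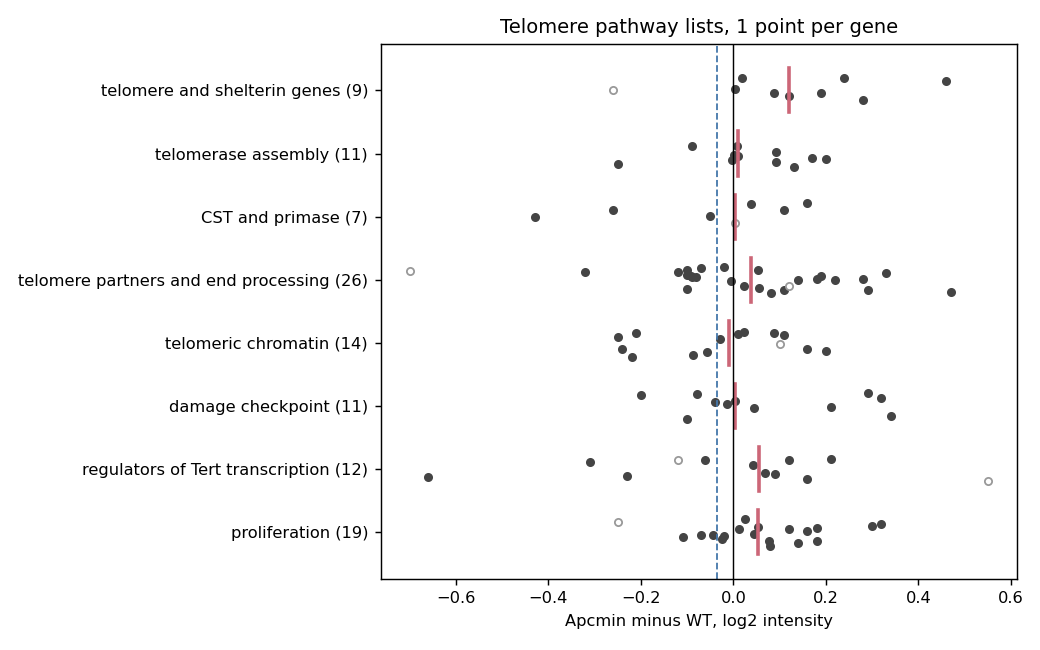
Difference between Apcmin and WT (log2 intensity) for each gene of the telomere lists and of proliferation, 1 point per gene, open where the mean log2 intensity is under 6; red bars are list medians and the dashed blue line is the median of all genes (-0.036). The medians lie between -0.009 for telomeric chromatin and 0.12 for the 9 telomere genes, and the points of every list fall on both sides of 0.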

How the data were processed

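Each array has 1 linear-scale intensity for every probe set, as deposited. Per the submitters' processing notes RMA was used, with no version given there. All intensities were positive, so log2 was taken with no pseudocount. The 6 columns were matched to the samples by their accessions and grouped by title. Of 45101 probe sets, 64 controls were left out. Genes were named through GEO's platform annotation where a probe set had exactly 1 symbol (34945 probe sets), and symbols were checked by Entrez identifier against RefSeq on GRCm38.p6 (34741 matched, 0 changed).

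Apcmin was compared with WT by limma 3.58.1 in R 4.3.3 (lmFit and eBayes on genotype alone), adjusted by Benjamini-Hochberg over 45037 probe sets at 0.05. The step was run on simulated data with independent noise and no effect of sex, unlike these arrays. The median log2 intensity per array lay between 4.12 and 4.18. Having 3 arrays a group limits the precision.

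The members and lists were chosen with earlier results of these data known. Named were the 9 members, Terf2ip, Apc, Ctnnb1, Myc and Mki67, and from each pathway list up to 2 genes in each direction, by smallest p, among those reaching a mean of 6 in either genotype. Xist, Eif2s3y and the marker genes were added as checks. Terc, Suv39h1, Trp53 and Nfkb1 are on the lists and are not analysed here. Alternatives were a further quantile normalization, a mean-variance trend, array weights, filters at the median and at 6, a floor at 4, other choices of probe set, a replicate block, a Y-linked covariate and leaving out each array.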

Additional observations from a re-analysis of the deposited data

How the results depend on the processing

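None of the 9 telomere genes passed under any of the 18 alternatives. Over the 159 values these gave, the smallest adjusted p in limma was 0.402 (Tert and Terf1 without WT replicate 3). The reported difference was equalled by 53 of the values. The trend, the block, the filters and the floor left it unchanged for the members they kept. So did a choice of probe sets that came to the same probe set. Of the 106 that moved, 94 had the same sign as reported. The Dkc1 difference ran from -0.10 to 0.17 when each array was left out, that of Tinf2 from -0.072 to 0.29, and that of Rtel1 from -0.006 to 0.014. Rtel1 was at -0.031 after a further quantile normalization, at -0.005 with the mean of all probe sets and at -0.006 on the arrays with high Xist. Pot1a was at -0.061 with the mean of all probe sets and at -0.13 with its most variable probe set. The median of the members was 0.21 on the arrays with high Xist, and 0.041 to 0.24 when each array was left out. With the mean of all probe sets the median was -0.081 for CST and primase, 0.12 for telomere partners and -0.041 for Tert regulators. With the most variable probe set it was 0.054 for telomeric chromatin and -0.081 for Tert regulators, and with no _s_at or _x_at probe set 0.001 for proliferation. When each array was left out, list medians ran from -0.012 to 0.12 (telomerase assembly), -0.051 to 0.035 (CST and primase), 0.032 to 0.082 (telomere partners), -0.018 to 0.052 (telomeric chromatin), -0.021 to 0.095 (damage checkpoint), -0.022 to 0.085 (Tert regulators) and 0.042 to 0.10 (proliferation). The cause of these changes was not tested.

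The labels do not say whether arrays of the same number form pairs. Their deviations from the genotype means had correlations of -0.047, -0.073 and -0.23. These cannot settle the question, since the deviations also carry sex and the low-Xist arrays have different numbers (WT replicate 3 and Apcmin replicate 2). With the replicate block 0 members passed, and the adjusted p of Pot1b was 0.998; in this balanced design a block cannot move its difference of 0.46. Tert has no value with the filters or with the floor, where all its arrays fall below. The choice without _s_at and _x_at probe sets and the one with high-Xist arrays were made after the values were seen. Signal over background was not measured for any probe set, and Tert is among the dim ones.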
